A study of Mus musculus with 4 samples.

Results

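Collagen chain genes were followed in mouse fibroblasts given siRNA against the Exportin-5 transcript. They were taken as every gene name on the array made of Col, a number, the letter a and a number, which gave 79 probes of 40 genes among 28095 gene names. By the structure of their proteins 11 are fibrillar collagens, 6 are basement membrane collagens, 9 are FACIT collagens (fibril-associated collagens with interrupted triple helices) and 14 belong to other classes. The cells were wild type primary embryonic fibroblasts of C57BL/6 mice, given siRNA against Xpo5, the Exportin-5 gene, or a negative control siRNA. Both groups were transfected with siRNA at 60 nM for 12 h, held in 0.2% serum for 48 h, and then kept in 20% serum for 24 h with another siRNA transfection. Each group had 2 samples, from 2 independent experiments, and each sample had its own 1-colour Agilent array. Whether the experiments drew on separate embryos is not stated in the labels, and p-values here therefore reflect only the spread between these samples, which may be technical.

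Collagens are secreted or membrane proteins whose chains wind around each other in a triple helix, in which glycine recurs at a fixed spacing along each chain. Fibrillar collagens form the load-bearing fibrils that fibroblasts lay down, type IV collagens form the sheets of basement membranes, and FACIT collagens sit on the surface of fibrils and tie them to their surroundings. The other classes include beaded filaments, anchoring fibrils, hexagonal networks, membrane-spanning collagens and the multiplexins, which release anti-angiogenic fragments. Exportin-5 carries microRNA precursors out of the nucleus, and microRNAs lower the transcripts that they pair with. Fibroblasts are a main source of interstitial collagen, which makes these genes a readout of what the cells produce as they return to the cell cycle.

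The glycine repeat can be read in the probes themselves. Of the 79 collagen probes, 3 hold an unbroken run of glycine codons spaced every 9 bases, and both shown here were measured above background on all 4 arrays. The Col5a1 probe lies at chr2:27842243-27844666 (mm9, plus strand) and the Col5a3 probe at chr9:20590066-20590795 (mm9, minus strand), spans that are longer than a probe of 60 bases because they include introns. Capitals mark the glycine codons.
Col5a1: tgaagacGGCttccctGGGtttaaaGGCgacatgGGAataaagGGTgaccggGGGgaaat
Col5a3: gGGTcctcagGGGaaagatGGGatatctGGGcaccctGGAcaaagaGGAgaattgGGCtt
Xpo5 siRNA minus control siRNA was 0.14 on the log2 scale at this Col5a1 probe and 0.24 at this Col5a3 probe.

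Promoter sequence is shown for the 3 tested collagen genes with the widest gap between the arrays of the groups, as the 250 bases before the RefSeq transcription start (GRCm38.p6). The windows are chr9:108953336-108953585 for Col7a1, chr11:51289670-51289919 for Col23a1 and chr10:34389731-34389980 for Col10a1, all on the plus strand. Capitals mark matches to the GC box GGGCGG, the TATA box TATAAA, the SMAD box CAGACA, the AP-1 site TGACTCA or the CCAAT box, searched on both strands.
Col7a1: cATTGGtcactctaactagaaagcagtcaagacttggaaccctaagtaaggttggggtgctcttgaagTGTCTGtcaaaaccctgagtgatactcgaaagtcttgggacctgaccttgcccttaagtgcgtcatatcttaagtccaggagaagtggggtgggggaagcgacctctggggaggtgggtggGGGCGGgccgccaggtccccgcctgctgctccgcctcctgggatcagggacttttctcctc
Col23a1: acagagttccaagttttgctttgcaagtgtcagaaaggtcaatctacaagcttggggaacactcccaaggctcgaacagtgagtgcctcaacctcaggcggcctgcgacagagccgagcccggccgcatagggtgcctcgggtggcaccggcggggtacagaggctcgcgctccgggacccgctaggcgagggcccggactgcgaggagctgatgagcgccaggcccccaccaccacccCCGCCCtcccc
Col10a1: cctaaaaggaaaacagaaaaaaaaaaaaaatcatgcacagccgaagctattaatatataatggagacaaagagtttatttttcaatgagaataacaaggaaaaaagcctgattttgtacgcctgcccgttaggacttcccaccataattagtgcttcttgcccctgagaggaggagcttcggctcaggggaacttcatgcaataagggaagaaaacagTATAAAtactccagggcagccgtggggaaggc
The Col7a1 window holds a GC box, a SMAD box and a CCAAT box, the Col23a1 window holds a GC box, and the Col10a1 window holds a TATA box. Windows were found for 32 of the 40 collagen genes, 35 windows in all. The GC box was in 20 of them (57.1%), against 32.7% of the 32851 windows of all genes. The SMAD box was in 9 (25.7%, against 17.1%), the TATA box in 5 (14.3%, against 12.4%), the CCAAT box in 12 (34.3%, against 33.8%) and the AP-1 site in 1 (2.86%, against 4.46%). A match describes the letters of the window and does not show that a factor binds there.

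Values below are log2 signals minus the log2 of the 75th percentile signal of their array, so that a signal equal to that percentile is 0, and differences are Xpo5 siRNA minus control siRNA. Xpo5 was at -1.95 and -1.93 on the Xpo5 siRNA arrays, against 1.31 and 1.26 on the control siRNA arrays. It fell by 3.23 ± 0.13 (SE, n = 2 in each group, adjusted p = 0.0217 in limma). That p was 0.0609 without control siRNA replicate 1, 0.120 without Xpo5 siRNA replicate 1, 0.104 without Xpo5 siRNA replicate 2 and 0.0609 with slide as a block. The share of spots well above background was 62.4% to 65.0% per array, and precision is limited throughout by having 2 arrays in a group. All 13 fibroblast markers were well above background on all 4 arrays, with a median difference of 0.02. The pairs of arrays share slides in a crossed way, so that slide 1 holds Xpo5 siRNA replicate 1 with control siRNA replicate 2 and slide 2 the other two.

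Most collagen genes had small differences between Xpo5 siRNA and control siRNA, and none passed the test across all genes. Of the 40 genes, 33 were tested, having a signal well above background on both Xpo5 siRNA arrays, both control siRNA arrays, or all 4. The difference lay within 0.3 of 0 for 21 of the 33 and was over 0.5 for 7 genes, while Col10a1 alone was far below 0. No share of all genes was taken at these cuts. Of the 7, Col19a1 and Col20a1 entered the test only through the Xpo5 siRNA arrays, and Col20a1 was at -0.47 in replicate 1. The limma test called 0 collagen genes at an adjusted p of 0.05, against 2 of all 16927 genes (0.0118%), of which Xpo5 is the lower one. At an unadjusted p of 0.05, 5 collagen genes were higher with Xpo5 siRNA (15.2% of the 33, against 7.84% of all genes) and 1 was lower (against 5.33%). The lower one, Col10a1, and 1 of the higher ones, Col19a1, entered the test only through the group in which they are higher. Among the 30 collagen genes well above background on all 4 arrays the counts were 4 higher and 0 lower, beside 1167 higher and 824 lower of 16128 genes. In these bulk samples, fewer cells of a type and less RNA per cell cannot be told apart.

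The collagen differences lay mostly above the median of all genes. The mean was higher with Xpo5 siRNA for 25 of the 33 genes and lower for 8, where 50.6% of all genes were higher. Their median difference was 0.20, against 0.00 over all genes tested. It was 0.15 between the arrays numbered 1 and 0.16 between the arrays numbered 2, against -0.01 and 0.01 over all genes. Without control siRNA replicate 2 it was 0.10, beside -0.02 over all genes. Both replicate numbers gave a higher value for 21 collagen genes (35.5% of all genes did so) and a lower value for 3 (34.8% of all genes). Both Xpo5 siRNA arrays lay above both control siRNA arrays for 14 collagen genes, which is 42.4% of those tested, against 23.6% of all genes, and below them for 1, Col10a1 (against 22.5%). Col10a1 and 1 of the 14, Col19a1, entered the test only through the group in which they are higher. Among the 30 collagen genes well above background on all 4 arrays these counts were 13 and 0, beside 3734 and 3656 of 16128 genes. Over the 30 collagen genes well above background on all 4 arrays the median was 0.18, with 23 of them higher, beside a median of 0.00 over 16128 genes. These counts and medians are descriptions, since the genes of a family are not replicates. When arrays were scaled to their median in place of the 75th percentile, the median of all genes moved to -0.10 and that of the collagens to 0.09. The number of collagen genes above 0 was then 18 of 33, and 19 of 33 in the deposited table, while 25 and 24 of the 33 lay above the median of all genes. Either scaling shifts every gene of an array alike, so the gap of 0.19 between the collagens and all genes could not change. That gap was 0.13 with another background correction (normexp) and 0.13 without control siRNA replicate 2.

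**Figure D1:**
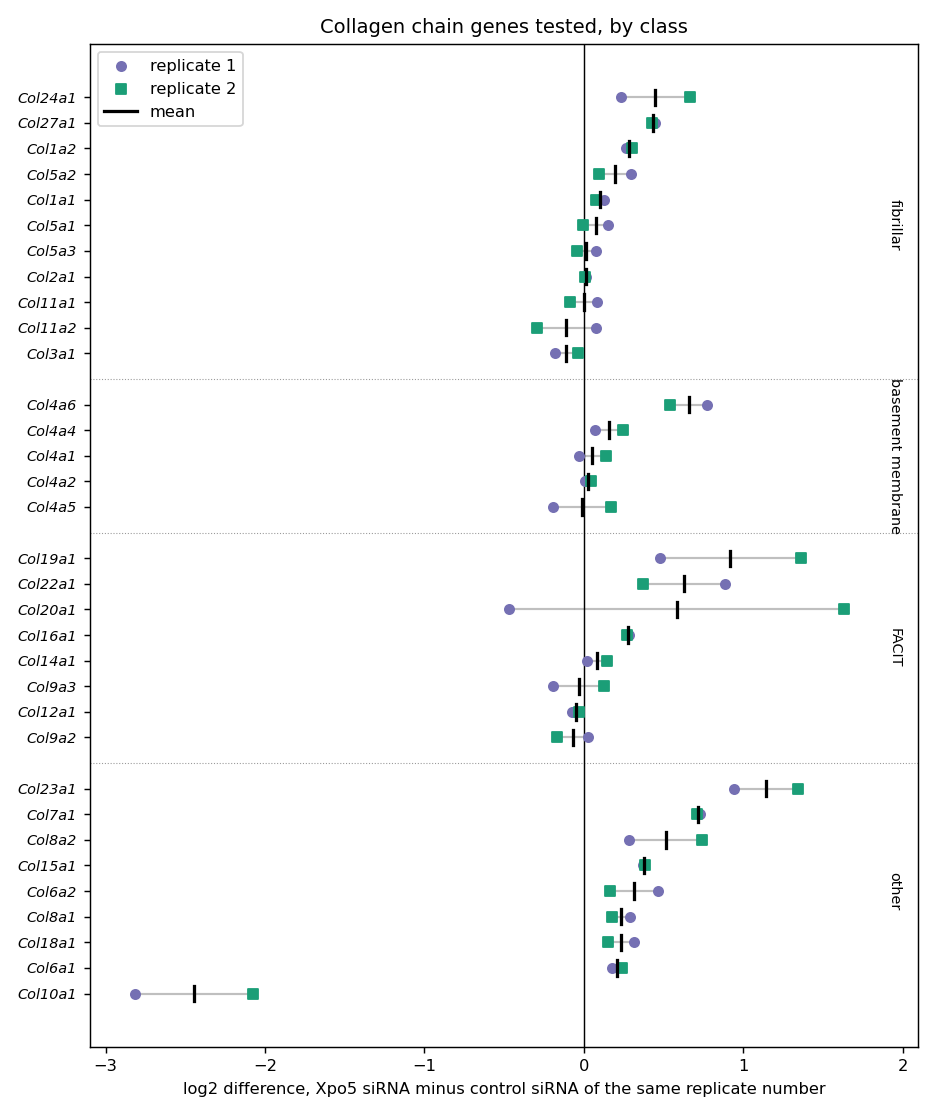
The log2 difference between Xpo5 siRNA and control siRNA (horizontal axis) is drawn for each of the 33 collagen genes tested, by class, with a circle for replicate 1, a square for replicate 2 and a bar for their mean. Most means lie between 0 and 0.5, Col23a1 is the highest at 1.15, and Col10a1 lies apart at -2.44.

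**Figure D2:**
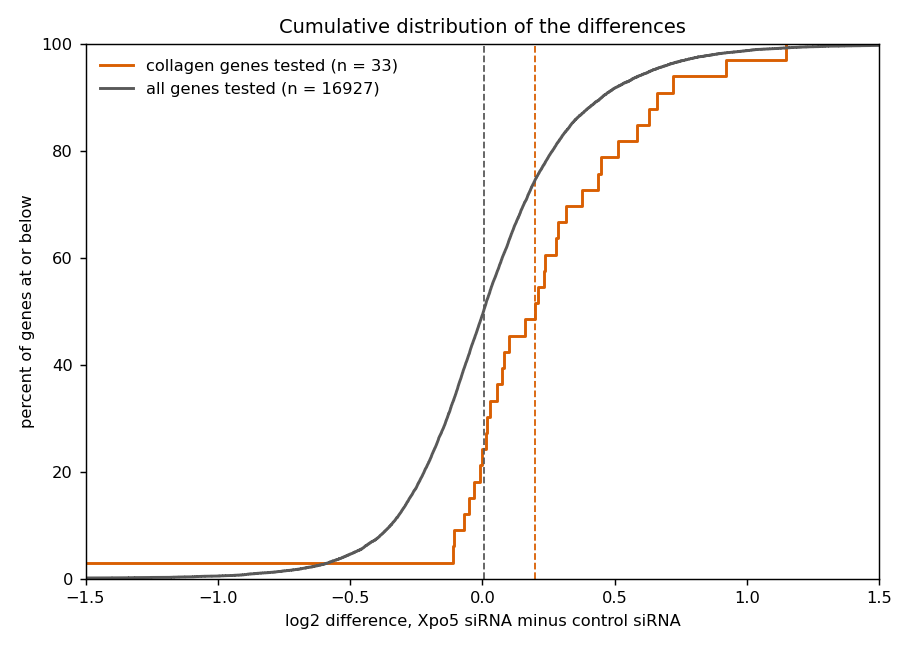
The percentage of genes at or below each log2 difference is drawn for the 33 collagen genes and for all 16927 genes tested, with dashed lines at the medians of 0.20 and 0.00. The collagen curve lies to the right of the curve of all genes except at its ends. At the lower end Col10a1 falls outside the axis. At the upper end the collagen curve is complete at 1.15 (Col23a1), while all genes run up to 3.64.

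The fibrillar collagens, the main products of fibroblasts, had differences close to 0. All 11 were tested, none had a difference beyond 0.5 in either direction, and 8 were higher and 3 lower, with a median of 0.07. Col1a1, a chain of type I collagen, was at 8.51 and 8.46 with Xpo5 siRNA, against 8.38 and 8.39 with control siRNA. The difference of 0.10 ± 0.13 was smaller than its SE (limma adjusted p = 0.765). Its partner chain Col1a2 was at 9.55 and 9.40 with Xpo5 siRNA, against 9.29 and 9.10 with control siRNA, a difference of 0.28 ± 0.15 (limma adjusted p = 0.486). At these probes the groups did not overlap for either chain of type I collagen, but neither difference passed. Xpo5 siRNA lay higher without overlap for 23.6% of all genes too. Another Col1a1 probe, well above background on all 4 arrays, ran the other way, also without overlap. It was at 5.66 and 5.46 with Xpo5 siRNA, against 5.88 and 5.76 with control siRNA, a difference of -0.26.

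Col3a1, which forms type III collagen and shares fibrils with type I, was at 6.56 and 6.33 with Xpo5 siRNA, against 6.75 and 6.37 with control siRNA. Its groups overlapped, and the difference was -0.11 ± 0.19. Col5a1 and Col5a2 encode chains of type V collagen, which starts fibrils and limits their width. Col5a1 was at 6.56 and 6.31 with Xpo5 siRNA, against 6.40 and 6.32 with control siRNA, and differed by 0.07 ± 0.15. Col5a2 was at 5.11 and 5.17 with Xpo5 siRNA, against 4.82 and 5.07 with control siRNA, a difference of 0.20 ± 0.15. Neither difference passed, and Col5a3, a further type V chain, differed by 0.02.

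Col27a1, a fibrillar collagen with a short helix, had one of the larger fibrillar differences, 0.44 ± 0.24 (limma adjusted p = 0.496). It was at -1.20 and -0.77 with Xpo5 siRNA, against -1.64 and -1.20 with control siRNA, so that replicate 1 of Xpo5 siRNA lay level with replicate 2 of control siRNA. The other probes of Col27a1, also well above background on all 4 arrays, gave -0.0026 and 0.48. Col24a1, the other short-helix fibrillar collagen, differed by 0.45 ± 0.37 with overlapping groups. The fibrillar chains of cartilage showed differences of 0.01 for Col2a1, -0.00 for Col11a1 and -0.11 for Col11a2. The fibrillar median was 0.13 in replicate 1 and 0.01 in replicate 2, and it was -0.03 without Xpo5 siRNA replicate 1, -0.03 without control siRNA replicate 2 and -0.03 with median scaling. The sign of the fibrillar median thus varied with the array left out and with the scaling.

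Among basement membrane collagens the widespread chains lay near 0, while Col4a6 was higher at 1 of its 2 kept probes. Of the 6 genes 5 were tested, 4 of them higher and 1 lower, with a median of 0.05. Col4a1 and Col4a2 encode the chains of type IV collagen found in nearly all basement membranes. Col4a1 was at 5.22 and 5.42 with Xpo5 siRNA, against 5.25 and 5.28 with control siRNA, a difference of 0.05 ± 0.14. Col4a2 was at 4.58 and 4.74 with Xpo5 siRNA, against 4.57 and 4.70 with control siRNA, a difference of 0.03 ± 0.14. Both are within their error of 0, their groups overlapped, and with median scaling they were at -0.05 and -0.08.

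Col4a6, a chain that pairs with Col4a5 in basement membranes such as those around smooth muscle, was at -1.48 and -1.38 with Xpo5 siRNA, against -2.25 and -1.93 with control siRNA. Both Xpo5 siRNA arrays lay above both control siRNA arrays, and the difference was 0.66 ± 0.17 (unadjusted p = 0.0119, limma adjusted p = 0.261). A second probe of Col4a6 that was also above background on all 4 arrays differed by only 0.01, and the mean over both probes was 0.33. Col4a4, a chain of the kidney filter, was at 0.32 and 0.39 with Xpo5 siRNA, against 0.24 and 0.14 with control siRNA, a difference of 0.16 ± 0.13. Its partner Col4a3 was not well above background on any array. Col4a5 differed by -0.01. Without Xpo5 siRNA replicate 2 the basement membrane median was -0.05, and it was -0.05 with median scaling too.

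The chains that assemble together can also be set side by side. Col4a1 and Col4a2 start 21 bases apart on opposite strands of chromosome 8 (RefSeq, GRCm38.p6), and their differences of 0.05 and 0.03 were close to each other. Col4a5 and Col4a6 start 1343 bases apart on opposite strands of the X chromosome, and theirs were -0.01 and 0.66. The other kept probe of Col4a6 was at 0.01, near Col4a5. Type I was at 0.10 and 0.28, and type V at 0.07 and 0.20. Type VI was at 0.21 and 0.31, and type VIII at 0.23 and 0.51. Type XI was at -0.00 and -0.11. As 25 of the 33 collagen genes tested were above 0, a shared sign of partners says little by itself. Some signs were also unstable. With median scaling Col1a1 was at -0.0040 and Col5a1 at -0.031, and the other probes of Col11a1 gave 0.45 and 1.11. Whether partners differ from each other was not tested.

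Among FACIT collagens the larger differences were at dim chains, while the other chains, dim ones such as Col9a3 included, lay nearer to 0. Of 9 genes 8 were tested, 5 of them higher and 3 lower, with a median of 0.18. Col16a1, which is found with fibrils and at the edge of basement membranes, was at 5.76 and 5.56 with Xpo5 siRNA, against 5.47 and 5.29 with control siRNA. The difference was 0.28 ± 0.15 (limma adjusted p = 0.502), it was 0.29 and 0.27 by replicate number, and a second probe gave 0.54. Col12a1, which decorates type I fibrils, was at 2.97 and 2.72 with Xpo5 siRNA, against 3.04 and 2.75 with control siRNA, a difference of -0.05 ± 0.18. Col14a1, with a similar place on fibrils, differed by 0.08, and the type IX chains of cartilage fibrils by -0.07 for Col9a2 and -0.03 for Col9a3.

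The larger FACIT differences came from weak signals. Col22a1, a collagen of tissue junctions such as that of muscle and tendon, was at -3.98 and -4.08 with Xpo5 siRNA, against -4.86 and -4.46 with control siRNA. That is a difference of 0.63 ± 0.19 (unadjusted p = 0.0203, limma adjusted p = 0.290), with groups that do not overlap. Col19a1, a collagen of basement membrane zones, was at -4.78 and -4.58 with Xpo5 siRNA, against -5.26 and -5.94 with control siRNA, and it was not well above background on 1 of the control siRNA arrays. Its difference of 0.92 ± 0.26 was 0.48 in replicate 1 and 1.36 in replicate 2, and as it entered the test only through the Xpo5 siRNA arrays, no p-value is given. With normexp background correction, whose added offset compresses weak signals, the difference was 0.16 for Col22a1 and 0.13 for Col19a1. Col20a1, also above background on 1 control siRNA array, differed by -0.47 in replicate 1 and 1.63 in replicate 2, so its mean of 0.58 ± 0.51 has no direction that both replicates share. The FACIT median was 0.03 among the 6 members well above background on all 4 arrays and 0.33 without control siRNA replicate 1.

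The other classes held the 3 tested genes with the widest gap between the arrays of the groups, Col10a1, Col23a1 and Col7a1. Of 14 genes 9 were tested, 8 of them higher and 1 lower, with a median of 0.31. By replicate number the median was 0.31 and 0.24, and by slide it was 0.34 and 0.30, against 0.04 and -0.04 over all genes. Both replicates gave the same direction for all 9 genes tested in these classes, as they did for 70.4% of all genes. Of the 9, Col10a1 entered the test only through the control siRNA arrays, where it is high.

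Col7a1 encodes type VII collagen, which forms the anchoring fibrils that hold the epidermis to the dermis and whose loss causes blistering of the skin. Its probe (chr9:108886855-108886914, mm9) was at 6.11 and 6.23 with Xpo5 siRNA, against 5.38 and 5.52 with control siRNA. The gap between replicates was 0.11 with Xpo5 siRNA and 0.13 with control siRNA. Col7a1 was singled out for the gap between its groups, so that gap is no further support. For 23.6% of all genes, too, Xpo5 siRNA lay higher without overlap. The difference of 0.72 ± 0.14 corresponds to 1.65-fold (unadjusted p = 0.0039, limma adjusted p = 0.212). It was 0.73 and 0.71 by replicate number and 0.60 and 0.84 by slide, and between 0.61 and 0.79 under every alternative run for this gene.

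Col23a1, a collagen that spans the plasma membrane, had the highest difference of the family. It was at -2.998 and -2.86 with Xpo5 siRNA, against -3.94 and -4.21 with control siRNA (chr11:51394380-51394439, mm9). Col23a1, too, was singled out for the gap between its groups, so their lack of overlap is no further support. Xpo5 siRNA lay higher without overlap for 23.6% of all genes. The difference was 1.15 ± 0.16, which is 2.21-fold (unadjusted p = 0.000935, limma adjusted p = 0.197). Another probe gave 1.09, while the last of its 3 probes was not well above background on any array. The signal is weak, and with normexp background correction the difference was 0.38.

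Col10a1, a network collagen made by hypertrophic chondrocytes of growing bone, was the only member clearly lower with Xpo5 siRNA. It was at -7.11 and -6.20 with Xpo5 siRNA, where neither array had it well above background, against -4.30 and -4.12 with control siRNA, where both did (chr10:34115562-34115621, mm9). It was thus at least 3.49-fold lower, taking the mean of the control siRNA arrays against a floor, per array, at the higher of the gene's own signal and the lowest signal of any probe well above background. The fitted difference was -2.44 ± 0.33. Col10a1 entered the test only through the control siRNA arrays, where it is high, so no p-value is given for it, and it has 1 probe. With normexp background correction its difference was -0.37.

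For Col23a1 and Col7a1 the call turned on the fit. Fitting the replicate number as a block over 16927 genes gave each of them a limma adjusted p of 0.0853, and called 0 collagen genes and 0.0295% of all genes. When the test was limited to the 13957 genes whose name RefSeq holds, an alternative added after the data were seen, the same block gave adjusted p-values of 0.0445 for Col23a1 and 0.0458 for Col7a1, and 0.0555 for Col4a6. In that fit 2.94% of all genes were called higher and 1.37% lower. It called 2 of the 33 collagen genes higher and 1 lower, the lower one being Col10a1, whose place in the test rested on the arrays where it is high.

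**Figure D3:**
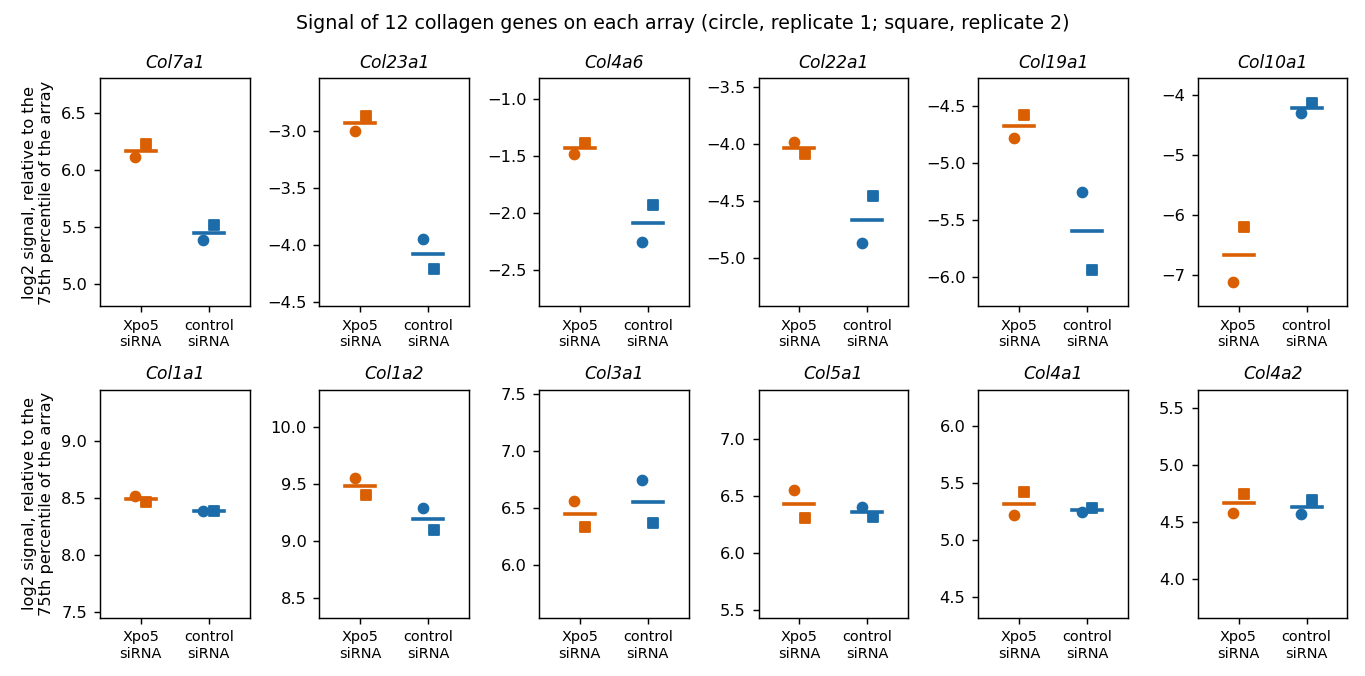
The log2 signal, with the array's 75th percentile set to 0 (vertical axis, drawn to its own range in each panel) is shown for 12 collagen genes on each of the 4 arrays, with Xpo5 siRNA left of control siRNA, circles for replicate 1, squares for replicate 2 and lines for group means. In the upper row the groups are apart, as for Col7a1 at 6.11 and 6.23 against 5.38 and 5.52, while in the lower row the groups overlap or lie close together.

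The remaining members of these classes had smaller differences, all above 0. Col15a1 and Col18a1 encode the multiplexins, found at basement membranes. Col15a1 was at -1.60 and -1.43 with Xpo5 siRNA, against -1.97 and -1.81 with control siRNA, a difference of 0.38 ± 0.15 (limma adjusted p = 0.383) that was 0.37 and 0.38 by replicate number. Col18a1, the source of endostatin, was at 3.63 and 3.44 with Xpo5 siRNA, against 3.32 and 3.29 with control siRNA, a difference of 0.23 ± 0.14. In both multiplexins each Xpo5 siRNA array lay above each control siRNA array, as for 23.6% of all genes, and neither difference passed.

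Col6a1 and Col6a2 encode chains of type VI collagen, the beaded filament between cells and fibrils. Col6a1 was at 5.02 and 4.82 with Xpo5 siRNA, against 4.84 and 4.58 with control siRNA, a difference of 0.21 ± 0.16. Col6a2 was at 3.98 and 4.02 with Xpo5 siRNA, against 3.51 and 3.86 with control siRNA, a difference of 0.31 ± 0.17. The groups overlapped for Col6a1 and not for Col6a2. The type VIII chains, which build hexagonal networks in vessel walls and the cornea, differed by 0.23 ± 0.13 for Col8a1 and by 0.51 ± 0.35 for Col8a2.

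The 7 genes that were not tested include Col4a3 and the FACIT Col9a1, and otherwise belong to the other classes. Col13a1, Col17a1 and Col25a1 encode membrane-spanning collagens, Col6a6 a beaded filament chain, and Col28a1 a collagen of peripheral nerve. Of the 7, 5 were not well above background on any array, while Col25a1 was on 1 Xpo5 siRNA array and Col9a1 on 1 control siRNA array. No difference is given for them.

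Probes of a gene did not always give the same sign. Of the 19 collagen genes with 2 or more probes kept, 12 had differences of 1 sign and 7 did not, and 13 of the 40 genes have a single probe. Col1a1 had differences of 0.10, 0.10 and -0.26 at its 3 probes. Col3a1 was at -0.11 at the probe used and at 0.06 and 0.47 at dimmer ones. Col11a1 was at -0.00 at the probe used and at 0.45 and 1.11 at the others. For these genes the sign depended on the probe, whereas the pairs of probes of Col23a1 and of Col15a1 lay close together.

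**Figure D4:**
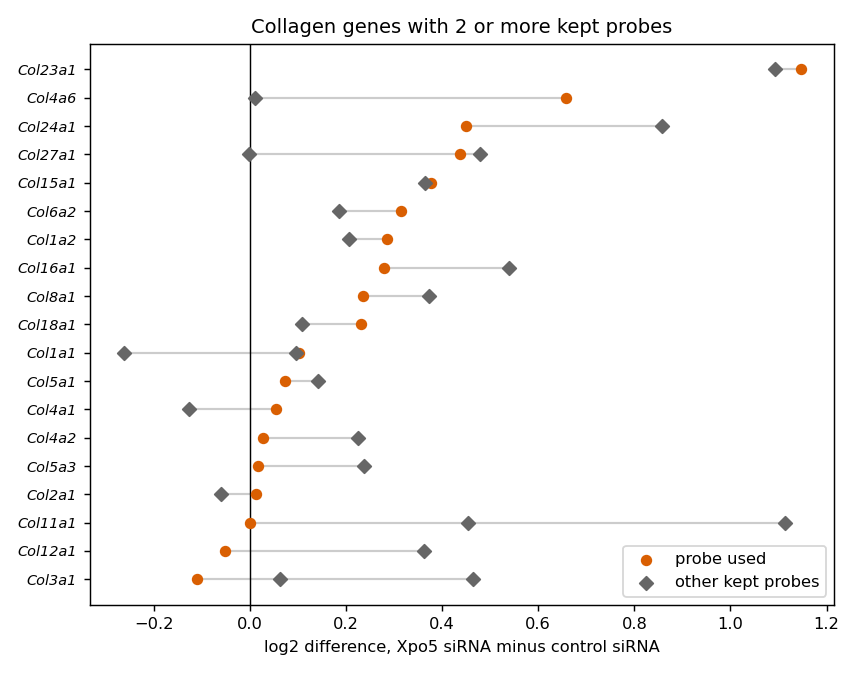
The log2 difference between Xpo5 siRNA and control siRNA (horizontal axis) is drawn for every kept probe of the 19 collagen genes with 2 or more, with a circle for the probe used and diamonds for the others. The probes of Col23a1 lie at 1.15 and 1.09, while those of Col4a6 lie at 0.66 and 0.01 and those of Col11a1 run up to 1.11.

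Genes that fold, trim and cross-link collagen were also tested, and none passed. Of 31 such genes on the array 29 were tested, 25 of them higher and 4 lower, with a median of 0.16 against 0.00 over all genes. Plod2, the lysyl hydroxylase of the collagen telopeptides, was at 0.05 and -0.18 with Xpo5 siRNA, against 1.23 and 0.88 with control siRNA. Its difference of -1.12 ± 0.18 (limma adjusted p = 0.200) ran opposite to that of most of the list. Pcolce2, an enhancer of procollagen trimming, was at 2.34 and 2.36 with Xpo5 siRNA, against 1.81 and 1.86 with control siRNA, a difference of 0.52 ± 0.13. Tll1, a protease that trims procollagen, was at -0.39 and -0.29 with Xpo5 siRNA, against -0.83 and -0.83 with control siRNA, a difference of 0.49 ± 0.13. In both the groups did not overlap, but both genes were named for their small p-values, so the gap is no further support. Xpo5 siRNA lay higher without overlap for 10 of the 29 genes, against 23.6% of all genes. The chaperone gene Serpinh1 differed by 0.15 and the cross-linking enzyme gene Lox by 0.19.

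Among 10 collagen receptors 7 were tested, 5 of them higher and 2 lower, with a median of 0.33 and 0 passing. Lair1, an inhibitory collagen receptor of leukocytes, differed by 1.04 ± 0.22 and Itga11, the integrin chain by which fibroblasts bind fibrillar collagen, by 0.63 ± 0.17. Ddr2, a receptor tyrosine kinase for fibrillar collagen, differed by 0.33. The 14 regulators of collagen genes were split at 6 higher and 8 lower, with a median of -0.05 and 0 passing. The smallest p-values among them belonged to Tgfbr2 at 0.54 ± 0.16, Creb3l1 at 0.57 ± 0.19 and Tgfbr1 at 0.50 ± 0.21. The first and the last of these encode TGF-beta receptors, and Creb3l1 a transcription factor of type I collagen genes.

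Markers of other cell types differed between the groups in part. All 10 macrophage markers were well above background on all 4 arrays and higher with Xpo5 siRNA, with a median difference of 0.69. Their summed signal, in units of the 75th percentile signal, was 78.1 and 67.5 with Xpo5 siRNA, against 54.2 and 39.1 with control siRNA. Most of this sum came from Lyz2, whose log2 signal was 5.92 and 5.73 with Xpo5 siRNA, against 5.42 and 4.95 with control siRNA. Laptm5 differed by 0.87 ± 0.15, Aif1 by 1.08 ± 0.23 and Emr1 by 1.02 ± 0.27. The part of these cells in the collagen values, and in that of Lair1, was not tested. Of 8 chondrocyte markers 4 were tested, with a median of 0.42, while Matn1, Hapln1 and Lect1 were not well above background on any array. Their summed signal was 1.92 and 1.61 with Xpo5 siRNA, against 1.84 and 1.63 with control siRNA. Of the osteoblast markers 1 of 5 was tested, with Ibsp and Dmp1 not above background anywhere. The median was 0.68 over 4 of 7 endothelial markers, where Pecam1, Cdh5 and Tie1 were not well above background, and 0.42 over the 5 neural and Schwann cell markers tested. It was -0.01 over 5 of 7 epithelial markers, where Epcam and Cdh1 were not well above background, and 0.23 over 5 smooth muscle markers. Of 6 skeletal muscle markers only Tnnt3 was tested, at 0.74.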

How the data were processed

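Per the labels' protocols, Cy3-labelled RNA of each of the 4 samples was hybridised to a 1-colour array. The authors deposited scanner output with spot intensity values, for which the file headers name Feature Extraction version 10.5.1.1, and its processed signal, already background-subtracted and linear, was used. A deposited table of log2 values was compared with these files. It holds the same log2 processed signal with each array shifted to a median of 5.33 (99.7% to 99.8% of probes within 0.001), and no gene was centred.

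The main values are log2 of the processed signal minus the 75th percentile of each array over non-control probes, without the 77 to 134 outlier spots per array, and with spots of a probe averaged. No spot was saturated. A probe was kept if both Xpo5 siRNA arrays or both control siRNA arrays had it well above background (25649 of 41174), and the probe of highest mean stood for each gene name. Groups were compared over 16927 genes in limma 3.58.1 (R 4.3.3) with lmFit and eBayes, two-sided, with Benjamini-Hochberg adjustment at 0.05, and the fit was tested on simulated data. Gene names and probe positions (mm9) are those of the files.

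Members and lists were chosen with earlier results of these data known. Every collagen gene could be named, and of each other list the 3 members with the smallest unadjusted p, to which Serpinh1 and Lox were added after their values were seen. One marker gene is not reported here. The series text names 2 experiments, and replicate numbers were taken to mark them, which the labels leave unsaid. Arrays of one number deviated together from their group means, with r = 0.419 across 16919 genes, which are not independent replicates. Alternatives were median scaling, quantile normalization, normexp with an offset of 50 with and without unevenly lit spots, other filters, averaged probes per gene, an intensity trend, slide or replicate blocks, the deposited table, each array left out and RefSeq-named genes only.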

Additional observations from a re-analysis of the deposited data

How the results depend on the processing

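The limits are the number of arrays and weak signals: Col10a1, Col19a1, Col22a1 and Col23a1 lie far below the 75th percentile, and normexp moved them to -0.37, 0.13, 0.16 and 0.38. Across the 4 settings that leave out an array, the array that remains alone in its group was taken to be as variable as the other group. The Xpo5 fall lost its call without a filter on dim probes (-3.23, limma adjusted p = 0.343), with the mean of its probes (-2.55, 0.188) and with slide as a block (-3.23, 0.0609), and it was -3.25 to -3.20 with an array left out, where it kept its call without control siRNA replicate 2 only (0.0369, and 0.0609 to 0.120 for the others). Of all genes, 1 passed higher and 1 lower in the reported fit. These counts were 4 and 8 with median scaling and with the deposited table, 3 and 6 with quantile normalization, 0 and 3 with normexp, 0 and 2 with normexp without uneven spots, and 0 and 0 without a filter. None passed higher with the stricter filter or the trend (0), and none lower with the mean of probes (0). With an array left out they were 0 to 1 and 0 to 3. The replicate block gave 1 and 4, RefSeq-named genes alone 2 and 1, and both together 411 and 191. That last alternative, added after the data were seen, was the only one to call collagen genes, 2 higher and 1 lower (Col10a1, tested only through the control siRNA arrays), and the pairing changed no other collagen call. Adjusted p-values under the block are tied over many genes (0.0853 for Col23a1 and Col7a1), so that the count hinges on how many genes are tested.

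The collagen median of 0.20 was 0.092 with median scaling and 0.091 with the deposited table, 0.18 with quantile normalization, with no filter and with the stricter filter, 0.13 with normexp, 0.14 with normexp without uneven spots, and 0.10 to 0.20 with an array left out. The fibrillar median was -0.031 with median scaling, -0.032 with the deposited table, and -0.030 to 0.14 with an array left out. The basement membrane median was -0.052 with median scaling, -0.053 with the deposited table, and -0.048 to 0.15 with an array left out. The FACIT median was 0.049 with normexp, 0.026 with the stricter filter and 0.15 to 0.33 with an array left out. The median of the other classes was 0.21 with median scaling and the deposited table, 0.20 with normexp and 0.19 without uneven spots. Among single genes the sign turned with median scaling for Col1a1 (-0.0040), Col4a1 (-0.052), Col4a2 (-0.078) and Col5a1 (-0.031), and with the deposited table for Col4a1 (-0.053), Col4a2 (-0.079) and Col5a1 (-0.032). It turned for Col4a1 with normexp (-0.0041), and with the mean of probes for Col12a1 (0.16), Col1a1 (-0.022), Col3a1 (0.14) and Col4a1 (-0.037). With an array left out, Col12a1 ranged from -0.20 to 0.095, Col3a1 from -0.30 to 0.077, Col4a1 from -0.048 to 0.15, Col4a2 from -0.056 to 0.11 and Col5a1 from -0.050 to 0.20. The cause was not tested.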
